A study of Mus musculus with 9 samples.

Results

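Retinoic acid is the active form of vitamin A. Cells make it from retinol in sequential oxidations, first to retinaldehyde by a retinol dehydrogenase and then to retinoic acid by a retinaldehyde dehydrogenase, and clear it by oxidation with cytochrome P450 enzymes of the Cyp26 family. It acts through nuclear receptors that bind DNA as pairs of a retinoic acid receptor and a retinoid X receptor, and in salivary tissue it is known for its part in gland branching and in keeping epithelium from turning squamous and keratinised.

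The genes described here are 9 genes of retinoic acid metabolism and response among 54532 Ensembl genes in a mouse RNA sequencing count table. They comprise the dehydrogenase gene Rdh10 and its opposing reductase gene Dhrs3, the synthesis genes Aldh1a1, Aldh1a2 and Aldh1a3, the breakdown gene Cyp26b1, the binding protein gene Crabp2, and the receptor genes Rara and Rarb. The members were chosen by name, with the low 90-day value of Cyp26b1 in these same libraries already known, so the values of Cyp26b1 are given as a description with no test, and nothing is read from the calls between 90 and 30 days. All 9 genes were found in the table, and 8 passed the filter on low counts, Crabp2 being left out of the tests.

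The tissue was the submandibular salivary gland of wild-type mice (genotype label WT), and every group shared a treatment of 10 Gy of radiation. The groups were 3 libraries at 30 days, 3 at 60 days and 3 at 90 days after irradiation, each from total RNA of gland sections. Non-irradiated glands, which the protocol mentions, were not analysed here, and the labels give no strain, age, sex or batch, so days after irradiation and age cannot be told apart. The labels do not say that the samples of a group are separate mice, so p-values measure the spread between these samples, which may be technical.

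Library totals ran from 16541396 to 26065856 counts and were lowest at 30 days. Levels are given as CPM, which is the count of a gene relative to a library size scaled by TMM (trimmed mean of M-values) factors, and a floor of 3 counts corresponded to 0.101 to 0.213 CPM. Acinar markers (Mucl2, Aqp5 and Bhlha15 among 9) and duct markers (Klk1, Krt8 and Egf among 9) were present in all libraries. Summed acinar markers overlapped between 30 days (445765 to 633190 CPM) and 90 days (304474 to 448189 CPM), whereas summed duct markers were higher at 90 days without overlap (18465 to 23226 against 23251 to 28722 CPM). Of the other lists, summed fibroblast markers (8 genes, 347 to 574 CPM over all libraries) and endothelial markers (6 genes, 61.4 to 86.0 CPM) overlapped between 30 and 90 days. Basal and myoepithelial sums (8 genes) overlapped only narrowly, at 352 to 485 CPM at 30 days and 478 to 676 CPM at 90 days. Of these 8 genes 8 had a positive log2 difference from 30 to 90 days, with a median of 0.44. In edgeR's test 7 of the 8 had an unadjusted p under 0.05, where 16.8% of all genes did. Adipocyte markers (5 genes) summed to at most 6.54 CPM, and the muscle gene Myh4 was at 0. Summed immune markers (8 genes) lay at 85.1 to 155 CPM at 30 days and 131 to 252 CPM at 90 days, and nerve and Schwann cell markers (5 genes) at 97.6 to 129 CPM over all libraries. Among single markers, Aqp5 fell and Amy1, Egf and Trp63 were among those that rose from 30 to 90 days by edgeR's test. The part of tissue composition in the values below was not tested, and in bulk samples fewer cells of a type and less RNA per cell cannot be told apart.

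Receptor pairs bind direct repeats of a hexamer, and a repeat with a gap of 5 bases is the best known retinoic acid response element. The RefSeq promoter table (GRCm38.p6, windows of 250 bases before to 50 bases after a start) held 12 windows for 6 of the 9 genes. Aldh1a3, Rdh10 and Crabp2 are not in that table. Each window was searched on both strands for pairs of hexamers in the same direction, with a gap of 1, 2 or 5 bases, where each hexamer was the consensus AGGTCA or one of the close variants AGTTCA as well as GGGTCA and also GGTTCA. Among the 9 genes 1 held such a repeat, Rarb, with a gap of 5 bases, 53 to 37 bases before the start used for its window. That start lies inside the gene, which is annotated from 16430839 to 16819156 on the minus strand. Such a repeat with a gap of 5 was in 32 of 32851 windows (0.0974%), with a gap of 2 in 0.268% and with a gap of 1 in 0.222%. The breakdown gene Cyp26a1, a relative of Cyp26b1, held 1 on the other strand, 32 to 16 bases before its start. These elements are shown because Rarb and Cyp26a1 are textbook genes induced by retinoic acid, and the Cyp26b1 stretch because the values of Cyp26b1 were the ones known when the genes were chosen. Capitals mark the repeat, with 6 bases on either side, and the Cyp26b1 stretch has no capitals because it holds none, which says only that these letters are not in this window. All are 5′ to 3′ on the strand of the gene.
Rarb (chr14:16575507-16575535, minus strand): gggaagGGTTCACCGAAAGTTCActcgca
Cyp26a1 (chr19:37697770-37697798, plus strand): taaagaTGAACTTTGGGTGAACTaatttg
Cyp26b1 (chr6:84593909-84594028, minus strand): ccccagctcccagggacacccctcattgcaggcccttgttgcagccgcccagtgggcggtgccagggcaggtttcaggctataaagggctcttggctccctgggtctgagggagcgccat

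Cyp26b1, the gene of a P450 enzyme that oxidises retinoic acid to inactive products, was lower at each later time point (ENSMUSG00000063415, chromosome 6, 84571414 to 84593908, minus strand, GRCm38). Its level was 6.03, 3.63 and 4.62 CPM in 30-day samples 1, 2 and 3, then 3.50, 2.71 and 2.09 CPM at 60 days, and 1.38, 0.928 and 1.20 CPM at 90 days. The groups did not overlap, although the lowest 30-day library and the highest 60-day library lay close together. Group means were 4.76 ± 1.21, 2.77 ± 0.707 and 1.17 ± 0.229 CPM (SD, n = 3 each). Behind them stood 85, 61 and 78 counts at 30 days and 41, 27 and 24 counts at 90 days, although the 90-day libraries were deeper. The log2 difference was -0.78 ± 0.28 (SE) from 30 to 60 days, -1.24 ± 0.30 from 60 to 90 days and -2.01 ± 0.30 from 30 to 90 days, and over 18 other ways of processing the last value stayed between -2.18 and -1.77. The 30-day library with the highest Cyp26b1, sample 1, also had the highest summed acinar markers (633190 CPM), and the 90-day library with the lowest Cyp26b1, sample 2, had the lowest (304474 CPM). The sum is nearly all Mucl2 and Prol1, and the other acinar markers were mixed. Aqp5 went with the sum, highest of all libraries in 30-day sample 1 (522.8 CPM) and lowest in 90-day sample 2 (301.5 CPM). Bhlha15 was 379.7 CPM in 30-day sample 1, near sample 2 (378.3 CPM), and lowest of all in 90-day sample 2 (262.1 CPM). Smgc (147 CPM), Amy1 (6.52 CPM) and Bpifa2 (14.1 CPM) were instead lowest in 30-day sample 1. In 90-day sample 2 Bpifa2 was highest (404 CPM), while Smgc was the lowest 90-day value (350.7 CPM). 90-day sample 3 and 30-day sample 3 had near-equal summed acinar markers (448189 and 445765 CPM) and 1.20 against 4.62 CPM of Cyp26b1. Single acinar markers were not matched between these libraries. In the same order Aqp5 was 337.6 against 452.5 CPM, Bhlha15 286.6 against 337.6 CPM and Bpifa2 222.9 against 64.82 CPM. This is 1 pair of libraries, and the part of acinar markers in the result was not tested.

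**Figure D1:**
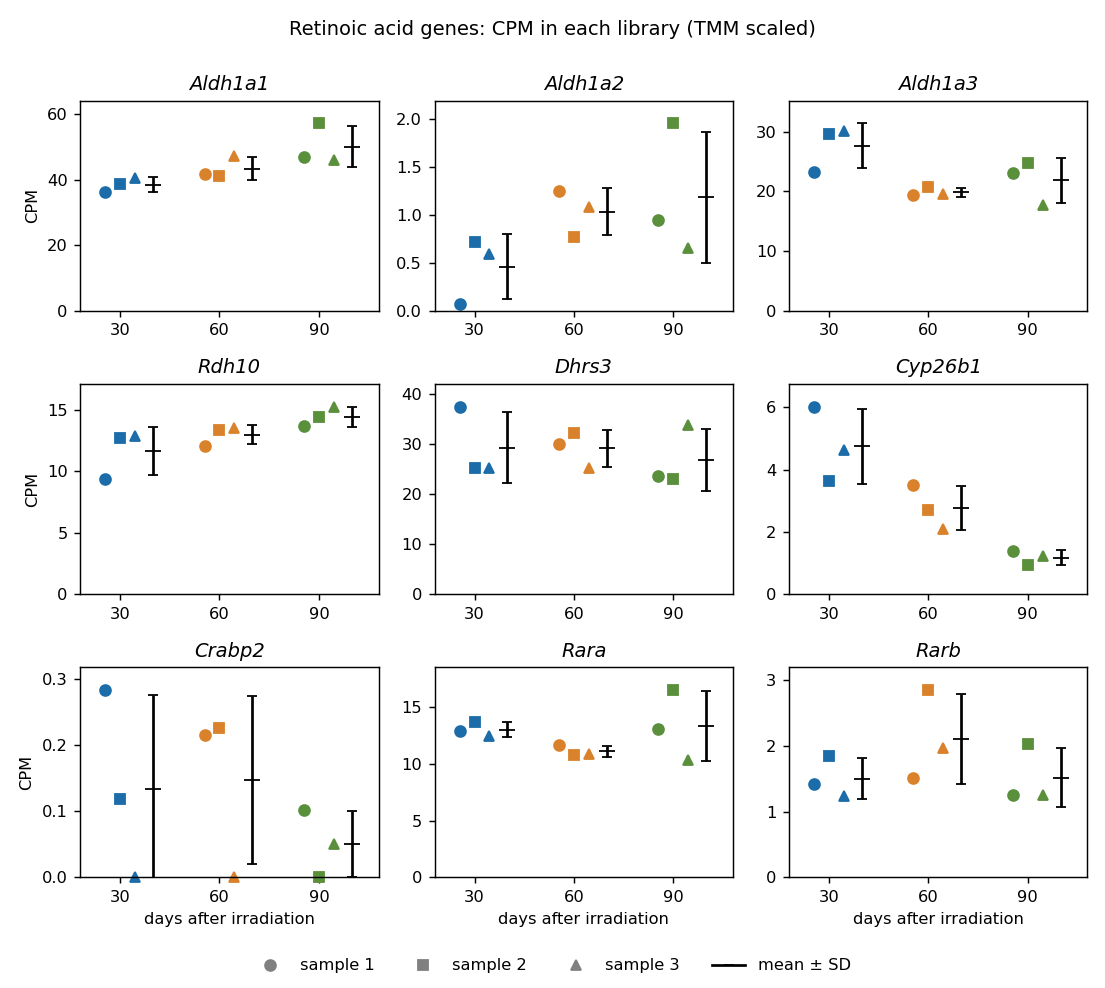
Level of each of the 9 genes in every library, in CPM on the vertical axis (each panel starts at 0 and has its own scale) against days after irradiation. Symbols are samples 1 to 3 and the black bars are mean ± SD. Cyp26b1 goes from 4.76 to 1.17 CPM in the mean, while the other panels show smaller or overlapping shifts.

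The other Cyp26 genes were almost silent. Cyp26a1 had 3 counts and Cyp26c1 had 1 count over all 9 libraries together, against 507 counts for Cyp26b1, so transcripts of this family came nearly all from Cyp26b1. Neither relative was deep enough for a comparison of time points.

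The enzymes of the 3 retinaldehyde dehydrogenase genes make retinoic acid. Aldh1a1 (ENSMUSG00000053279, chromosome 19, 20492715 to 20643465, plus strand) measured 36.2, 38.6 and 40.6 CPM at 30 days, 41.7, 40.9 and 47.3 CPM at 60 days, and 46.9, 57.2 and 45.9 CPM at 90 days. All 60-day and all 90-day libraries lay above all 30-day libraries, and the 60-day and 90-day values overlapped. The log2 difference was 0.17 ± 0.11 (SE) from 30 to 60 days (edgeR adjusted p = 0.580) and 0.21 ± 0.11 from 60 to 90 days (edgeR adjusted p = 0.517), and neither passed the threshold of 0.05. The first was 0.11 without 60-day sample 3 and the second 0.090 without 90-day sample 2. From 30 to 90 days it was 0.38 ± 0.11 (95% interval 0.15 to 0.61), which did not pass after adjustment (edgeR adjusted p = 0.0651).

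Aldh1a3 (ENSMUSG00000015134, chromosome 7, 66390890 to 66427517, minus strand) stood at 23.2, 29.5 and 30.0 CPM at 30 days, 19.3, 20.7 and 19.5 CPM at 60 days, and 23.1, 24.8 and 17.6 CPM at 90 days. The 60-day libraries lay below all 30-day libraries and close together, while the 90-day libraries overlapped both groups. The log2 difference from 30 to 60 days was -0.48 ± 0.14 (SE, 95% interval -0.77 to -0.19), with an unadjusted p of 0.00244 in edgeR's test that did not hold after adjustment over all genes (edgeR adjusted p = 0.104). From 60 to 90 days it was 0.14 ± 0.14 (edgeR adjusted p = 0.766; 0.034 without 90-day sample 2 and 0.27 without 90-day sample 3), and from 30 to 90 days -0.34 ± 0.14 (-0.21 without 90-day sample 3).

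Aldh1a2 (ENSMUSG00000013584, chromosome 9, 71215789 to 71296243, plus strand), the main synthesis gene of many embryonic tissues, was scarce here. It had 1, 12 and 10 counts in the 30-day libraries, 29, 17 and 26 at 60 days, and 28, 57 and 13 at 90 days, or 0.459 ± 0.341, 1.04 ± 0.245 and 1.19 ± 0.686 CPM (SD, n = 3 each). The single count in 30-day sample 1 and the 57 counts in 90-day sample 2 set much of this spread. The log2 differences of 1.13 ± 0.60 (SE) from 30 to 60 days and 0.21 ± 0.52 from 60 to 90 days did not pass the test (edgeR adjusted p = 0.462 and 0.928), and their 95% intervals of -0.14 to 2.39 and -0.89 to 1.31 show how little these counts can settle. From 30 to 60 days the value was 0.66 without 30-day sample 1, and from 60 to 90 days it was -0.37 without 90-day sample 2.

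Rdh10 and Dhrs3 set the supply of retinaldehyde, the former oxidising retinol and the latter reducing retinaldehyde back. Rdh10 (ENSMUSG00000025921, chromosome 1, 16105774 to 16133734, plus strand) stood at 9.36, 12.7 and 12.8 CPM at 30 days, 12.1, 13.4 and 13.5 CPM at 60 days, and 13.7, 14.4 and 15.3 CPM at 90 days. Every 90-day library lay above every earlier one, by little. Its log2 difference was 0.15 ± 0.15 (SE) from 30 to 60 days and 0.15 ± 0.14 from 60 to 90 days, and neither passed (edgeR adjusted p = 0.729 and 0.760). The first step was 0.024 without 30-day sample 1 and the second 0.10 without 60-day sample 1. Over the whole interval it was 0.30 ± 0.14 (95% interval 0.0016 to 0.61), which did not pass after adjustment (edgeR adjusted p = 0.293).

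Dhrs3 (ENSMUSG00000066026, chromosome 4, 144892827 to 144928209, plus strand), itself a gene that retinoic acid is known to induce, overlapped between all time points at 37.4, 25.1 and 25.1, then 29.9, 32.2 and 25.1, then 23.6, 22.9 and 33.8 CPM. Single libraries at 30 and 90 days were the highest, so the spread within groups exceeded the difference between them. The log2 differences were -0.0039 ± 0.18 (SE) from 30 to 60 days and -0.12 ± 0.18 from 60 to 90 days (edgeR adjusted p = 0.995 and 0.863). The 95% intervals, -0.39 to 0.38 and -0.50 to 0.26, leave room for changes of either sign. Both differences turned positive (0.056 and 0.046) with library-size scaling, and the first turned positive under several other alternatives.

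Crabp2, whose protein carries retinoic acid to its receptors, was at or near the floor (ENSMUSG00000004885, chromosome 3, 87948666 to 87953376, plus strand). It had 4, 2 and 0 counts at 30 days, 5, 5 and 0 at 60 days, and 3, 0 and 1 at 90 days, so no comparison between time points was possible. Its relative Crabp1 was detected throughout, at 4.66 ± 1.78, 3.73 ± 0.793 and 4.10 ± 0.437 CPM (SD, n = 3 each), and its differences did not pass in any contrast (edgeR adjusted p = 0.686 from 30 to 60 days, 0.898 from 60 to 90 days and 0.802 from 30 to 90 days).

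Of the receptor genes, Rara (ENSMUSG00000037992, chromosome 11, 98927818 to 98974942, plus strand) was the more abundant, at 12.9, 13.7 and 12.4 CPM at 30 days, 11.7, 10.8 and 10.8 CPM at 60 days, and 13.1, 16.5 and 10.4 CPM at 90 days. The 60-day libraries lay just below the 30-day libraries, and the 90-day libraries spanned both. Neither step passed, with -0.23 ± 0.16 (SE) from 30 to 60 days and 0.27 ± 0.16 from 60 to 90 days on the log2 scale (edgeR adjusted p = 0.609 and 0.562). The second step was 0.077 without 90-day sample 2 and 0.41 without 90-day sample 3.

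Rarb, a receptor gene that is itself a classical target of retinoic acid and the one member with a repeat in its promoter window, had 20, 31 and 21 counts at 30 days, 35, 63 and 47 at 60 days, and 37, 59 and 25 at 90 days (ENSMUSG00000017491, chromosome 14, 16430839 to 16819156, minus strand). In CPM these were 1.42, 1.84 and 1.24, then 1.51, 2.85 and 1.96, then 1.25, 2.03 and 1.25. Sample 2 was the highest in each group, and all 3 groups overlapped. The log2 difference was 0.48 ± 0.36 (SE) from 30 to 60 days and -0.47 ± 0.34 from 60 to 90 days (edgeR adjusted p = 0.636 and 0.666), and 0.015 ± 0.36 from 30 to 90 days with a 95% interval of -0.74 to 0.77. Without 60-day sample 2 the steps were 0.21 and -0.20, and without 90-day sample 2 the second was -0.76. Exons of Rarb share 1793 bases with Top2b on the opposite strand. Top2b was far more abundant (67.7 CPM on average against 1.71 CPM for Rarb) and, since the use of strand in counting is not given in the sources used here, the level of Rarb is uncertain. Top2b itself had log2 differences of -0.12 ± 0.11 (SE) and 0.039 ± 0.10 in the successive steps (edgeR adjusted p = 0.700 and 0.932).

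**Figure D2:**
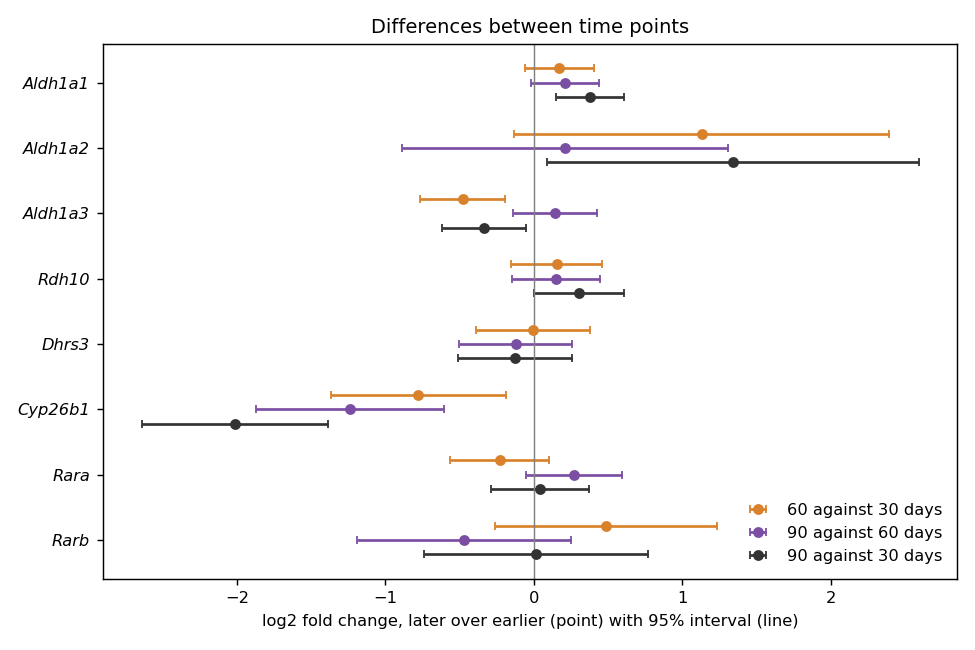
Log2 fold change of the 8 genes that passed the filter, for 60 against 30, 90 against 60 and 90 against 30 days (horizontal axis, points with 95% intervals). Cyp26b1, drawn as a description, is at -2.01 for 90 against 30 days, and the widest intervals are those of the scarce Aldh1a2. The intervals drawn for Cyp26b1 show the spread in the fit and are no test, since its low 90-day value was known beforehand.

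Counted over the fit of all genes, 0 of the 7 tested members other than Cyp26b1 passed between 30 and 60 days, where 1.56% of 15224 genes did, and 1 of them (Aldh1a3) had an unadjusted p under 0.05, where 12.4% of all genes did. DESeq2 and limma-voom also called 0 of the 7 there. Between 60 and 90 days 0 of the 7 passed (0.256% of all genes) and 0 had an unadjusted p under 0.05 (10.8% of all genes), with 0 by DESeq2 and limma-voom as well. Between 30 and 90 days, 3.57% of all genes passed and 0 of the 7 did. At an unadjusted p under 0.05 there were 16.8% of all genes and 4 of the 7, and nothing is read from these counts. Values of the 7 did not overlap between groups in 4 for 30 and 60 days (Aldh1a1, Aldh1a2, Aldh1a3 and Rara; 16.9% of all genes), in 1 for 60 and 90 days (Rdh10; 15.9%) and in 2 for 30 and 90 days (Aldh1a1 and Rdh10; 23.2%). The contrasts share libraries, so these counts are not separate evidence.

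Levels of different genes were compared per kilobase of merged exon length (RPKM, from the same scaled counts). Averaged over the 9 libraries, the order was Dhrs3 (9.68 RPKM), Aldh1a1 (8.90), Aldh1a3, Rdh10 (3.13), Rara (2.86), Cyp26b1 (0.541), Aldh1a2 (0.394), Rarb (0.324) and Crabp2 (0.0837). Over all libraries together, Dhrs3 overlapped Aldh1a1, Rdh10 overlapped Rara, and Cyp26b1, Aldh1a2 and Rarb overlapped each other. The other neighbours did not overlap. The lowest Aldh1a1 value was 7.34 RPKM, Aldh1a3 ran from 3.82 to 6.50 RPKM, and the highest Rdh10 value was 3.67 RPKM. The place of Cyp26b1 shifted with time. At 30 days its 0.677 to 1.13 RPKM lay above Rarb (0.236 to 0.350) and Aldh1a2 (0.0313 to 0.315), whereas at 90 days its 0.173 to 0.258 RPKM overlapped Rarb (0.237 to 0.385) and lay below Aldh1a2 (0.288 to 0.865). Among the synthesis genes Aldh1a1 was 7.79 ± 0.445 RPKM at 30 days against 5.98 ± 0.818 for Aldh1a3, and 10.1 ± 1.26 against 4.73 ± 0.810 RPKM at 90 days (SD, n = 3 each).

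**Figure D3:**
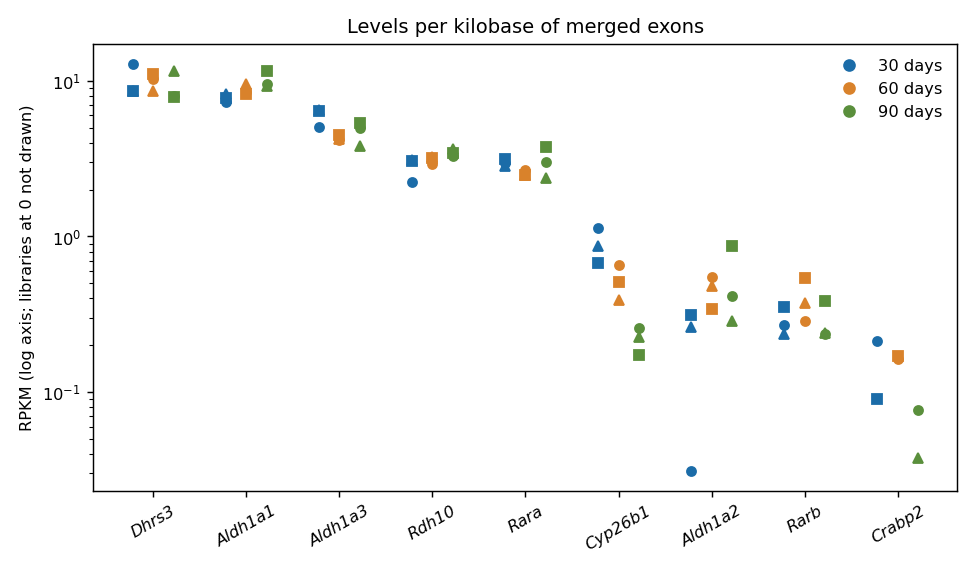
RPKM of the 9 genes in every library (vertical log axis, libraries at 0 not drawn), ordered by mean and coloured by days after irradiation. Dhrs3 and Aldh1a1 lie near 10 RPKM, and Cyp26b1 spans from 1.13 at 30 days down to 0.173 at 90 days.

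The rest of the pathway was read from a list of 58 symbols, of which 57 were found and 36 passed the filter. In the steps from 30 to 60 and from 60 to 90 days 0 of the 36 passed by edgeR adjusted p, where 1.56% and 0.256% of all genes did. DESeq2 also called 0 in both. An unadjusted p under 0.05 in edgeR's test was found for 6 and 4 of the 36, where 12.4% and 10.8% of all genes had one. From 30 to 90 days 6 had an unadjusted p under 0.05 (16.8% of all genes), and 1 of 36 passed, against 3.57% of all genes called. That count was 0 without 30-day sample 1 or 3 or without 90-day sample 2 or 3, and 2 without 60-day sample 1 or 3 and with DESeq2. The median log2 difference of the 36 was -0.01, 0.00 and -0.03 in the 3 contrasts, beside 0.00, 0.00 and 0.01 for all genes. With library-size scaling the medians for 90 against 30 days moved to 0.19 for the 36 and 0.24 for all genes.

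Of 8 tested retinol and retinal dehydrogenase genes 8 had a positive log2 difference from 30 to 60 days and 3 from 60 to 90 days, with medians of 0.17 and -0.11. In either step 0 were called by edgeR (1.56% and 0.256% of all genes), and 1 in each had an unadjusted p under 0.05 (12.4% and 10.8% of all genes). The 9 receptor and cofactor genes lay between -0.37 and 0.17 on the log2 scale at 90 against 30 days. The lowest was the coactivator gene Ncoa3, named after its values were seen, which averaged 55.3 ± 6.74 CPM (SD, n = 3) in the 30-day libraries and, without overlap, 42.7 ± 1.38 CPM in the 90-day libraries. Its difference of -0.37 ± 0.11 (SE) missed the threshold (edgeR adjusted p = 0.0583), whereas DESeq2 and the fit with no filter called it. Rxra, Rxrb and Rarg, whose products pair on response elements, stood at 30.0 ± 1.95, 27.8 ± 2.94 and 21.6 ± 3.37 CPM at 30 days and 28.1 ± 1.25, 31.2 ± 4.76 and 22.7 ± 1.61 CPM at 90 days (SD, n = 3 each). Their log2 differences had 95% intervals of -0.34 to 0.15, -0.22 to 0.56 and -0.21 to 0.36. Rxrg was scarcer, at 3.74 ± 0.876 and 2.97 ± 0.907 CPM (SD, n = 3 each; 95% interval -1.02 to 0.35).

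Genes widely described as induced by retinoic acid gave 0 calls by edgeR for 60 against 30, 90 against 60 and 90 against 30 days. The shares of all genes called were 1.56%, 0.256% and 3.57%. In the same order 3, 1 and 2 of them had an unadjusted p under 0.05, where 12.4%, 10.8% and 16.8% of all genes did. Of 14 listed, 8 passed the filter (among them Nrip1, Tgm2, Rarres2, Meis1, Meis2, Nr2f1 and Nr2f2), 2 of 8 were positive at 90 against 30 days and their median log2 difference was -0.16, within -0.33 to 0.45.

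**Figure D4:**
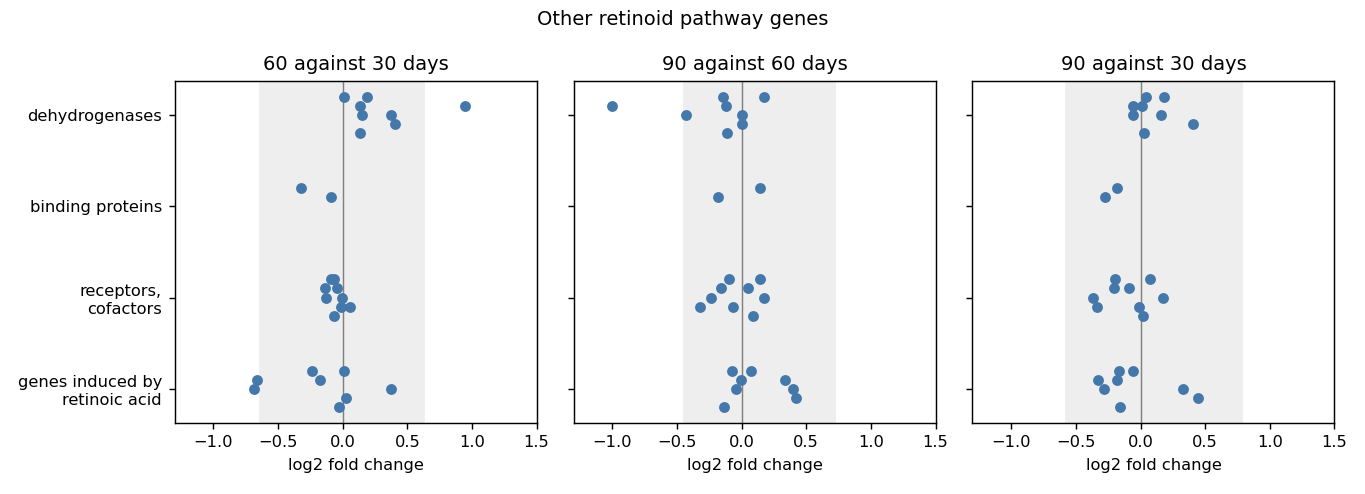
Log2 fold changes (horizontal axis) of tested pathway genes other than the members in 4 roles (rows: 8 dehydrogenases, 2 binding proteins, 9 receptors and cofactors, 8 genes induced by retinoic acid) in the 3 contrasts (panels). Points are genes and the grey band holds the middle 90% of all 15224 genes. No gene drawn has an adjusted p under 0.05, and the 9 receptors and cofactors lie between -0.37 and 0.17 for 90 against 30 days.

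The genes whose course was most like that of Cyp26b1 were sought among 13019 genes of at least 1 CPM on average, by the root mean square difference of log2 CPM centred on each gene's mean over the 9 libraries. This difference was 0.21 for Kif5c, a kinesin motor heavy chain gene, 0.24 for 9230114K14Rik, 0.28 for A530013C23Rik, 0.33 for Dtna, which codes for the dystrophin-associated protein alpha-dystrobrevin, and 0.35 for BC024139. The median over all genes compared was 0.86. Kif5c averaged 38.3, 23.3 and 10.7 CPM at the successive time points, and Dtna 31.2, 27.2 and 10.3 CPM. The same 5 genes came out with library-size scaling and with another prior count. No gene of the pathway list was among them, and all 5 values come from the libraries that ranked them, so likeness here is a description.

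**Figure D5:**
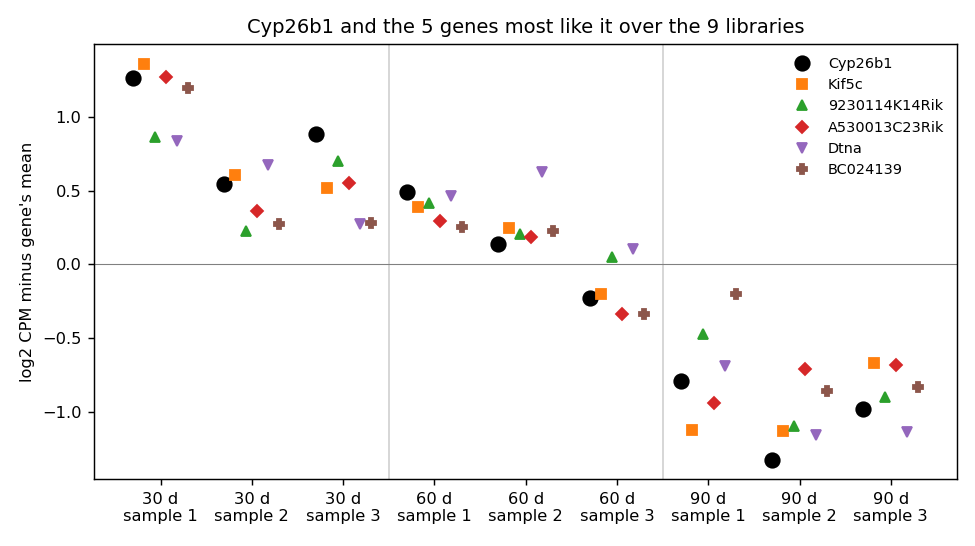
Log2 CPM minus each gene's own mean (vertical axis) for Cyp26b1 (large black points) and the 5 genes most like it, in the 9 libraries (horizontal axis, grouped by time point). Cyp26b1 is above its mean in the 30-day libraries and below it in the 90-day libraries, and the 5 others, such as Kif5c with a root mean square difference of 0.21, lie near it.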

How the data were processed

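RNA of irradiated mouse submandibular glands was sequenced in 9 libraries. The authors deposited raw read counts per Ensembl gene. Per the submitters' processing notes fastp, STAR and featureCounts were used with build mm10. Their versions, settings, annotation and use of strand are not given in the sources used here. Columns were matched to samples by day and sample number, and 3 columns that match no listed sample were not used.

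Genes passing filterByExpr (minimum count 10) in edgeR 4.0.16 were scaled by TMM. All 9 libraries were fitted together and tested with edgeR's quasi-likelihood test (robust), with Benjamini-Hochberg adjustment over 15224 genes and a threshold of 0.05. Standard errors and 95% intervals are from the same fit. CPM uses TMM-scaled library sizes, and RPKM divides it by the merged exon length in GENCODE M21 (GRCm38), which also gave positions. The tests were tested on counts simulated with the estimated spread of these genes. That setting had no batch or composition differences, and its planted differences were larger than most of those of the members. Within groups, libraries differed beyond sampling noise (chi-square per degree of freedom at least 9.41). The intervals come from the fit, so they include the spread between libraries of a group as well as counting error. Floors from reads without molecular identifiers cover counting error only.

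Members and lists were chosen with earlier results of these data known. The rule named all members, each pathway gene with an adjusted p under 0.05, Cyp26a1, Cyp26c1, Crabp1, Rarg and the Rxr genes, and the 5 genes most like Cyp26b1. Some results that this rule or the lists give are not reported here. Alternatives were scaling by size factors of the DESeq2 type or by library size, tests with DESeq2 1.42.0 and limma-voom (limma 3.58.1), other filters, the 6 libraries of a contrast alone, each library left out, the sample number as a block, and thinning to the smallest total. Software was R 4.3.3 and matplotlib 3.10.9.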

Additional observations from a re-analysis of the deposited data

How the results depend on the processing

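Over 18 alternatives, 654 of 699 values of the named genes other than Cyp26b1 kept their direction and side of the threshold, and 90 of 108 counts of calls kept their size. The differences of Cyp26b1 kept their direction under all 18. Depth limits Crabp2, Cyp26a1 and Cyp26c1, which could not be compared, and Aldh1a2 and Rarb, whose intervals are wide. Causes of the changes below were not tested.

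The counts of calls above take in Cyp26b1, whose own calls are left out below because its low 90-day value was known beforehand. With no filter on low counts, which tests more genes, 1 member other than Cyp26b1 passed between 30 and 60 days (Aldh1a3). Between 60 and 90 days 0 did, and between 30 and 90 days 1 did (Aldh1a1). Pathway genes numbered 1, 1 and 2 (Dhrs4 in each shorter step, and Ncoa3 among the 2). DESeq2 called 0 members other than Cyp26b1 in each contrast and 2 pathway genes between 30 and 90 days (Ncoa3 among them). Leaving out each library gave 0 members other than Cyp26b1 between 60 and 90 days. Between 30 and 90 days it gave 0 to 1, the 1 (Aldh1a1) without 60-day sample 3. It gave 0 to 1 pathway genes in each shorter step, the 1 (Dhrs4) without 60-day sample 3, and 0 to 2 between 30 and 90 days.

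Values near 0 that turned sign, none of them past the threshold, were as follows on the log2 scale. With library-size scaling Dhrs3 was 0.056, 0.046 and 0.10 for 60 against 30, 90 against 60 and 90 against 30 days, Rxrb 0.036 and Rxrg 0.014 for 60 against 30 days, and Crabp1 0.034 and Rxra 0.13 for 90 against 30 days. This scaling moved the median of all genes to 0.05, 0.17 and 0.24. With no filter Dhrs3 was 0.012, Rxrb 0.016 and Rxrg 0.00036 for 60 against 30 days. With limma-voom Dhrs3 was 0.022 for 60 against 30 days and Rarb -0.0029 for 90 against 30 days. Thinned libraries gave Rxrg 0.012 for 60 against 30 days and Rara -0.089 for 90 against 30 days. Leaving out each library, values for 60 against 30 days ran from -0.10 to 0.21 for Dhrs3, -0.52 to 0.040 for Crabp1, -0.14 to 0.071 for Rarg, -0.28 to 0.12 for Rxrb and -0.25 to 0.29 for Rxrg. For 90 against 60 days they ran from -0.37 to 0.48 for Aldh1a2, -0.024 to 0.26 for Crabp1 and -0.049 to 0.15 for Rxra. For 90 against 30 days they ran from -0.33 to 0.087 for Dhrs3, -0.15 to 0.18 for Rara, -0.27 to 0.19 for Rarb, -0.38 to 0.17 for Crabp1 and -0.0055 to 0.20 for Rarg.

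The sample numbers in the titles did not pair the libraries: deviations from group means correlated by -0.06 to 0.191 between same-numbered libraries, over 0.1 in 1 of 9 pairs, and 1 of 9 libraries correlated best with its own number in both other groups. With the replicate number as a block, the counts of calls were 0, 0 and 0 for members other than Cyp26b1 and 0, 0 and 1 for pathway genes, as without it. The share of all genes called was 1.77%, 0.604% and 4.71%. Dhrs3 was 0.0074 for 60 against 30 days and Rarb -0.0017 for 90 against 30 days under this block, both opposite in sign to the values without it.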
